A study of Rattus norvegicus with 15 samples.

Results

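The microvillus structure genes described here are Vil1, Espn, Pls1, Cdhr2, Cdhr5, Cdh17, Myo1a and Ezr, 8 of the 33097 genes tested, in mucosal cells from 5 segments of the rat gut. They were chosen by name: a probe belonged to the set when its gene name was one of these symbols or an older one, such as Mucdhl for Cdhr5, Pcdh24 for Cdhr2 and Vil2 for Ezr. Cdhr2 was reached through a provisional name that the RefSeq annotation lists as a synonym of it. All 8 genes were found, through 12 of the 38846 probes tested, and all 8 passed the filter on dim probes. Levels were read with 2-colour whole-genome oligonucleotide arrays from Agilent, with 3 samples each of stomach, duodenum, jejunum, ileum and colon, 15 samples in all. The segments had been turned inside out, digested briefly with pronase (a mixture of proteases) and elutriated to give suspensions of mucosal cells, without further treatment. The labels give male Sprague Dawley rats and no age, and those of ileum 3 give neither strain nor sex. The samples of a segment are taken as independent isolations, although all colon samples carry the barcode of a single slide. Whether each used another animal is not given in the labels, and the p-values cover the spread between isolations.

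Microvilli are finger-like folds of the apical membrane that together form the brush border of absorptive enterocytes, the cells that take up nutrients. Each holds a bundle of actin filaments crosslinked by villin (Vil1), espin (Espn) and plastin 1 (Pls1, also called fimbrin). The bundle is tied to the membrane by myosin 1a (Myo1a) and ezrin (Ezr), and the tips of neighbouring microvilli are joined by the protocadherins Cdhr2 and Cdhr5. Cdh17, the liver-intestine cadherin, is an adhesion molecule of the lateral membrane of intestinal epithelial cells and is included here as a marker of that epithelium. Ezrin is not specific to the intestine: it links actin to the membrane in many epithelia, parietal cells of the stomach among them.

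A level is given below as relative signal, a multiple of the 75th percentile of the sample's own probes, and a difference as its log2. Differences were fitted with limma over all genes, with dye as a covariate and the slide as a random block, and were called at an adjusted p (Benjamini-Hochberg over all genes of a contrast, two-sided) under 0.05. Segments are ordered by their mean log2 level. The small bowel is the equal-weight mean of duodenum, jejunum and ileum, 9 samples. Levels of different probes cannot be compared, since each binds its target with its own strength.

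The probes are 60 bases long. The sequences of 5 of them are shown because the results turn on them: those of Vil1, Cdhr2 and Myo1a stand for their genes, and those of Cdh17 and Ezr are the second probes, which gave another pattern than the first. Each is read 5′ to 3′, with its rn4 position from the annotation in the array files.
Vil1, probe A_44_P416960, chr9:73769114-73770845, plus strand: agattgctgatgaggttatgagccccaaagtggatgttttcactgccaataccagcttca
Cdhr2, probe A_44_P436191, chr17:15941851-15941910, minus strand: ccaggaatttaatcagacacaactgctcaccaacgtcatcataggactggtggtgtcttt
Myo1a, probe A_43_P15808, chr7:67710105-67710164, plus strand: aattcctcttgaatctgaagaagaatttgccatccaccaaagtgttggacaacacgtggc
Cdh17, second probe A_44_P132825, chr5:26081776-26081835, plus strand: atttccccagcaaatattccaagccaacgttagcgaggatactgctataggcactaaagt
Ezr, second probe A_43_P15737, chr1:41190703-41190762, minus strand: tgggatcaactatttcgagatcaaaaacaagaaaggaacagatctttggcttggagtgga
The Vil1 positions span 1732 bases for 60 bases of probe, and the positions of the other 4 span 60 bases each. The first Cdh17 probe, at chr5:26099099-26099158, lies 17263 bases from the second. The first Ezr probe, at chr1:41178307-41178366, lies 12336 bases from the second.

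RefSeq promoters of the GRCr8 build matched 7 of the 8 genes, all but Cdh17. The windows of Cdhr5 and Espn overlap their genes by 92 and 184 of their 250 bases. Those of Myo1a and Pls1 reach 4052 and 76913 bases inside the outermost bounds of their genes. None of these windows is shown here, and the other 3 lie outside the bounds of their genes. The 250 bases before the start are shown for Vil1 and Cdhr2, whose levels were far lower in stomach than in small bowel, and for Ezr, whose level was not. Capitals mark a match to GTTAAT, the letters at the core of an HNF1-type motif.
Vil1, chr9:83439998-83440247, plus strand: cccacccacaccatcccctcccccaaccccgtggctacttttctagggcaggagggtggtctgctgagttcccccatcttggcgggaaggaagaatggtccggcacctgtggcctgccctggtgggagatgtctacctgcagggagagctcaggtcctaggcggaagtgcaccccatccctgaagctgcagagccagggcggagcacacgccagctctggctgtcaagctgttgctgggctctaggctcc
Cdhr2, chr17:9917699-9917948, minus strand: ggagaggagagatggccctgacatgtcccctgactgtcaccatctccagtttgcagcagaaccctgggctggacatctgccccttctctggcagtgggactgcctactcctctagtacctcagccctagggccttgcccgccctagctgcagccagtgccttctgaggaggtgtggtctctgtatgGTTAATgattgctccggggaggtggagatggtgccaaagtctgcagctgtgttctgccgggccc
Ezr, chr1:49416574-49416823, minus strand: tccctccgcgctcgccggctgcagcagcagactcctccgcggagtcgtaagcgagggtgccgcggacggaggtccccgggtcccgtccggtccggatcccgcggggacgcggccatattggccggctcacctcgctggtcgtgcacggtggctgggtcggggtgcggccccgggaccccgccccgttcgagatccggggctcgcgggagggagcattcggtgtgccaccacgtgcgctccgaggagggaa
Searched on both strands, GTTAAT was present in 1 of these 3 promoters, that of Cdhr2, 64 to 59 bases before the start, against 6.45% of 33469 promoters of the same length. The letters TTTAT, the core of a CDX2-type motif, were in none of the 3 and in 39.3% of all. CAAAGNNCA, an HNF4A-type motif, was in none of the 3 and in 5.22% of all. The shares over all promoters were taken without leaving out windows that reach into their genes. Over all 7 windows of the set, TTTAT was in 2, those of Cdhr5 and Pls1, which are not shown. These matches describe letters only, and binding was not measured.

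Some samples stand apart from the others. The stomach arrays were scanned on a day of their own with an earlier version of the extraction software and a lower limit for calling a probe above background, so segment and scan cannot be told apart for stomach. The same holds for colon, whose samples were read on another scanner model with a later software version, on days that no other segment shared, and from 1 slide. Ileum and scan cannot be told apart either. The ileum samples were all in Cy3, on slides and scan days that no other segment shared. Ileum 2 and ileum 3 were also read with a software version (9.5.3.1) that no other segment had. Between 44.4% (ileum 1) and 97.1% (stomach 3) of probes were well above background, and median intensities lay between 92.4 (colon 3) and 1048 (ileum 3). Each duodenum sample shared an array with a jejunum sample, in the other dye. Colon 1 and colon 2 shared a hybridisation, and colon 3 came from a second scan whose header gives the barcode of that slide. Colon 2 and colon 3, both labelled with Cy5, differed by an SD of 0.498 on the log2 scale over 16243 probes. The SD was 0.300 for colon 1 and 2, 0.333 for stomach 1 and 2 and 0.488 for ileum 2 and 3, so colon 3 was kept as a sample. Whether colon 3 was a separate hybridisation is not known. Jejunum 1 had the highest level of 7 of the 8 genes among the 9 small bowel samples, while 17.2% of all genes were highest there.

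The suspensions were checked against markers of the cells they could hold, summed as relative signal over each list. The 6 markers of absorptive enterocytes (Alpi, Fabp1, Fabp2, Si, Apoa4 and Lct) summed to 3.08 to 3.16 in stomach, 158 to 240 in duodenum, 332 to 1298 in jejunum, 64.9 to 222 in ileum and 59.8 to 64.7 in colon. The 5 markers of parietal and chief cells summed to 187 to 328 in stomach and to at most 5.43 in any other sample. The 6 fibroblast markers summed to 64.03 to 82.8 in stomach and at most 7.14 elsewhere, and the 5 endothelial markers to 14.0 to 15.4 in stomach and at most 6.03 elsewhere. The 6 general epithelial markers summed to 124 to 195 in stomach, 145 to 368 in the small bowel segments and 409 to 491 in colon. The 4 goblet cell markers tested summed to 9.71 to 12.9 in stomach, 105 to 760 in the small bowel and 129 to 176 in colon. The 5 leukocyte markers tested summed to 2.88 to 3.05 in stomach, 8.77 to 37.1 in duodenum and jejunum, 40.6 to 58.9 in ileum and 1.83 to 2.30 in colon, and the 4 smooth muscle markers tested to at most 2.78 in any sample. The 6 genes that respond to dissociation summed to 7.75 to 8.32 in stomach, 48.1 to 239 in the small bowel and 263 to 330 in colon. Their part in the differences below was not tested, and in bulk suspensions fewer cells of a type and less RNA per cell cannot be told apart.

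Villin, an actin bundler that can also sever filaments, had relative signals of 0.128, 0.144 and 0.0894 in stomach, 17.6, 14.7 and 10.96 in duodenum, 34.4, 16.3 and 24.0 in jejunum, 13.004, 16.0 and 9.77 in ileum and 5.60, 6.63 and 6.37 in colon. Every stomach sample was far below every other sample, and every colon sample was below every small bowel sample. The order of the means was jejunum, duodenum, ileum, colon, stomach, and only the last neighbours, colon over stomach, were called different (54.5-fold, adjusted p = 3.09e-09, limma). Among pairs that are not neighbours, jejunum (3.70-fold, adjusted p = 0.000689) and duodenum (2.29-fold, adjusted p = 0.0155, limma) were also called above colon.

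Plastin 1, the fimbrin of the bundle, had relative signals of 0.300, 0.257 and 0.277 in stomach, 1.41, 3.03 and 1.46 in duodenum, 2.99, 1.68 and 1.68 in jejunum, 2.21, 2.12 and 3.47 in ileum and 2.14, 2.48 and 1.49 in colon. The stomach samples lay below all others, and the 4 intestinal segments overlapped. The means ran ileum, jejunum, colon, duodenum, stomach, with only duodenum over stomach apart (6.64-fold, adjusted p = 1.22e-05, limma).

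Espin, a strong actin crosslinker that also bundles the stereocilia of hair cells, had relative signals of 0.804, 0.806 and 0.762 in stomach, 0.626, 0.660 and 0.699 in duodenum, 3.51, 1.08 and 1.15 in jejunum, 0.369, 0.867 and 0.808 in ileum and 1.34, 1.55 and 1.68 in colon. The stomach samples lay among the intestinal ones, and jejunum 1 was the highest of all. The order of the log2 means was jejunum, colon, stomach, duodenum, ileum, and no neighbours in it were called different. On the linear scale ileum (mean 0.681) stood above duodenum (0.661).

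Cdhr2, a protocadherin of the tip link, had relative signals of 0.183, 0.171 and 0.171 in stomach, 3.63, 4.03 and 2.49 in duodenum, 10.3, 3.24 and 2.74 in jejunum, 2.63, 4.55 and 2.71 in ileum and 1.29, 1.96 and 2.12 in colon. Colon lay between stomach and small bowel without overlapping either. The means ran jejunum, duodenum, ileum, colon, stomach, and colon over stomach was the only step called (10.4-fold, adjusted p = 5.61e-05, limma), a step that the other probes of the gene did not give.

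Cdhr5, the mucin-like partner of Cdhr2, had relative signals of 0.150, 0.185 and 0.156 in stomach, 36.2, 60.8 and 29.5 in duodenum, 156, 23.3 and 48.2 in jejunum, 12.7, 19.2 and 20.7 in ileum and 39.9, 39.7 and 43.4 in colon. Here colon was not low: its samples lay within the range of the small bowel and above all 3 ileum samples. The log2 means ran jejunum, colon, duodenum, ileum, stomach, and ileum over stomach was the only step called (105-fold, adjusted p = 1.41e-08, limma). On the linear scale colon (mean 41.0) stood below duodenum (42.2).

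Cdh17, the lateral cadherin, had relative signals of 0.141, 0.101 and 0.185 in stomach, 51.2, 63.1 and 43.6 in duodenum, 163, 42.6 and 61.1 in jejunum, 28.0, 37.5 and 29.4 in ileum and 48.4, 54.7 and 54.1 in colon. Its order of log2 means was that of Cdhr5, again with ileum over stomach as the only step called (230-fold, adjusted p = 1.77e-10, limma). On the linear scale the means of colon (52.4) and duodenum (52.7) were in the other order.

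Myo1a, the motor that bridges the bundle and the membrane, had relative signals of 0.127, 0.0905 and 0.0958 in stomach, 5.12, 5.15 and 3.59 in duodenum, 9.03, 4.23 and 5.38 in jejunum, 4.44, 6.24 and 3.78 in ileum and 0.906, 1.15 and 1.99 in colon. The 3 small bowel segments overlapped, colon lay below all of their samples, and stomach lay below colon. It was the only one of the 8 genes with a step between neighbours in its order called on both sides of colon. Duodenum was above colon (3.57-fold, adjusted p = 0.00396) and colon above stomach (12.2-fold, adjusted p = 6.86e-06, limma).

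Ezrin had relative signals of 65.7, 48.1 and 57.4 in stomach, 39.1, 41.4 and 29.8 in duodenum, 53.2, 35.4 and 38.7 in jejunum, 26.6, 28.6 and 25.7 in ileum and 59.3, 61.8 and 73.0 in colon. Stomach and colon were the bright segments, ileum the dimmest, and the spot was saturated in stomach 3. The means ran colon, stomach, jejunum, duodenum, ileum, with no neighbours called different. Pairs farther apart in the order were called. Stomach (2.12-fold, adjusted p = 0.00363) and colon (2.43-fold, adjusted p = 0.00748) were above ileum, and colon was above duodenum (1.77-fold, adjusted p = 0.0417, limma).

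Of the 32 neighbour pairs in these orders, 7 were called. Over all genes, 14.4% were called lower in stomach than in colon, 10.9% lower in stomach than in ileum, 10.3% lower in stomach than in duodenum and 11.8% higher in duodenum than in colon. These shares are for fixed pairs of segments, while the neighbours were set by each gene's own means. The share of neighbour pairs called over all genes was not counted. In the F test over the 5 segments all 8 genes were called, with adjusted p between 3.63e-11 (Vil1) and 0.0117 (Espn), against 42.2% of all genes.

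**Figure D1:**
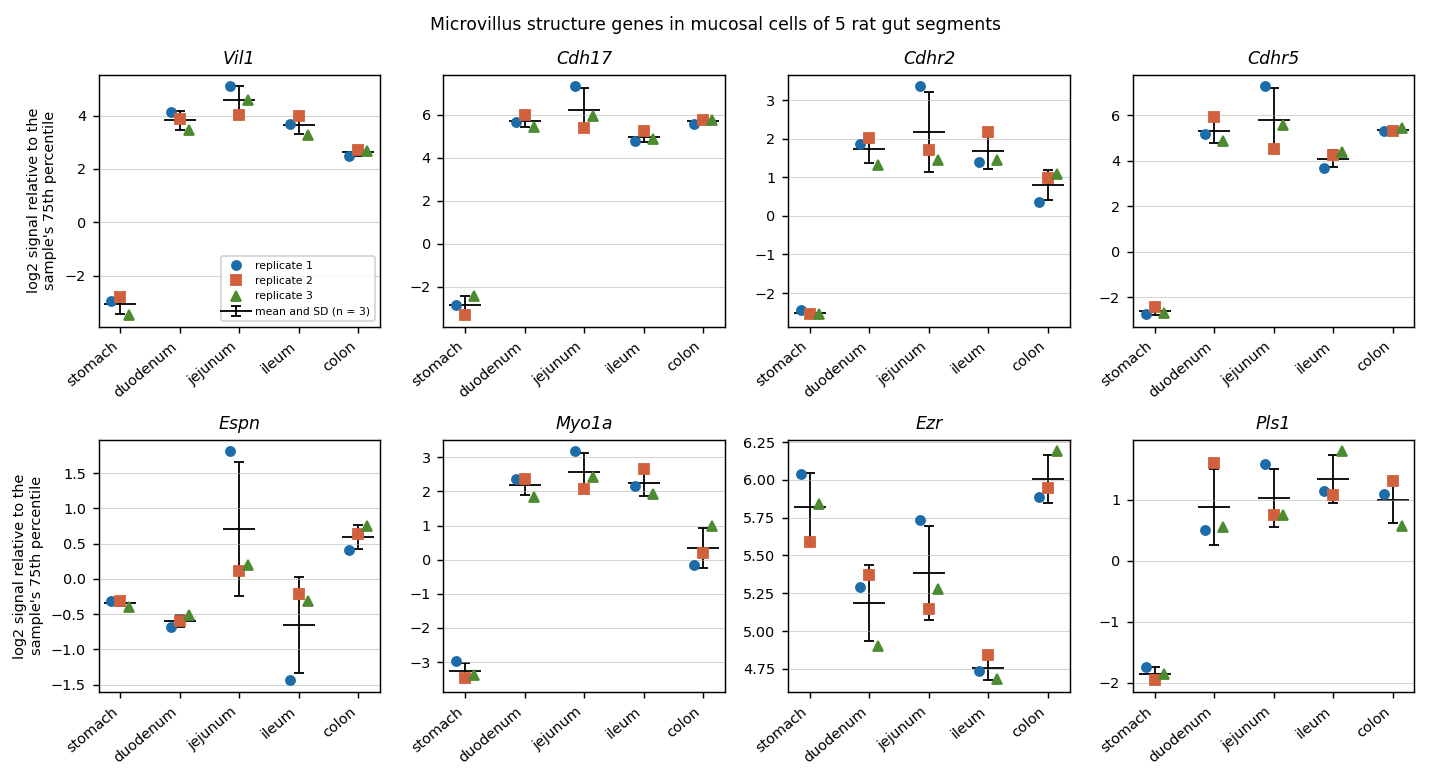
Log2 of the signal relative to the sample's 75th percentile for the 8 genes in each of the 15 samples, by segment from stomach to colon; points are samples, horizontal lines means and bars the SD (n = 3), and each panel has its own axis. The stomach samples sit far below the rest for Vil1, Cdh17, Cdhr2, Cdhr5, Myo1a and Pls1, and not for Espn and Ezr.

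Stomach was set against small bowel to compare a gastric with an absorptive mucosa. In stomach 6 of the 8 genes were lower (Vil1, Cdh17, Cdhr2, Cdhr5, Myo1a and Pls1), 1 was higher (Ezr) and 1 was not called (Espn), against 11.8% lower and 15.5% higher among all genes tested. The median difference of the 8 was -4.99 on the log2 scale, beside 0.28 for all genes. The actin bundlers split: Vil1 was 138-fold lower in stomach (log2 difference -7.10 ± 0.24 SE, adjusted p = 1.6e-12), Pls1 was 7.64-fold lower (-2.93 ± 0.27, adjusted p = 3.73e-07), and Espn differed by -0.16 ± 0.34 (adjusted p = 0.763, limma). The cadherins were all lower, Cdh17 by 361-fold (-8.50 ± 0.31, adjusted p = 3.39e-12), Cdhr5 by 207-fold (-7.70 ± 0.38, adjusted p = 1.29e-10) and Cdhr2 by 20.7-fold (-4.37 ± 0.34, adjusted p = 3.86e-08). Of the membrane links, Myo1a was 48.6-fold lower in stomach (-5.60 ± 0.30, adjusted p = 3.2e-10) and Ezr was 1.64-fold higher (0.72 ± 0.20, adjusted p = 0.013, limma).

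In stomach the 6 lower genes were at relative signals of 0.0894 to 0.300, still above background in every sample by the scanner's own call, whose limit was lower for the stomach arrays. Their groups did not overlap, while those of Ezr did: jejunum 1, at 53.2, was above stomach 2, at 48.1. How many of all genes had groups without overlap was not counted, here or for colon. The Ezr call was lost without stomach 1 (0.61, adjusted p = 0.0985) or stomach 3 (0.69, adjusted p = 0.076), with the scan day as the block (0.68, adjusted p = 0.136) and after another background correction (0.58, adjusted p = 0.147, limma). Relative to the median of all genes the Ezr difference was 0.44. The 6 lower calls were made in every alternative run, and without jejunum 1 or any other single sample. Their sizes moved: with normexp correction the log2 differences were -6.10 for Vil1, -7.00 for Cdhr5, -4.42 for Myo1a and -3.60 for Cdhr2, and with the mean of all probes -6.63 for Cdh17 and -2.57 for Cdhr2. All 6 enterocyte markers were lower in stomach too, with a median log2 difference of -5.46, as were all 6 dissociation genes (median -4.19). All 5 parietal and chief cell markers and 5 of 6 fibroblast markers were higher there.

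Colon was set against small bowel to compare an absorptive mucosa without villi with one that has them. In colon Vil1 and Myo1a were lower, Ezr was higher and the other 5 genes were not called, against 13.2% lower and 12.6% higher among all genes tested. The median difference of the 8 was -0.01, beside 0.003 for all genes. Myo1a was 3.98-fold lower in colon (log2 difference -1.99 ± 0.37 SE, adjusted p = 0.000873) and Vil1 2.52-fold lower (-1.33 ± 0.30, adjusted p = 0.00373), and for both no colon sample reached a small bowel sample. Both calls were made in every alternative run. Ezr was 1.88-fold higher in colon (0.91 ± 0.25, adjusted p = 0.0138, limma), with all 3 colon samples above all 9 small bowel samples. That call was lost without colon 3 (0.82, adjusted p = 0.0516), after quantile normalization (0.15, adjusted p = 0.747) and after normexp correction (0.28, adjusted p = 0.527), under which the median of all genes was 0.33 and Ezr stood 0.05 below it.

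The remaining 5 genes gave log2 differences, colon minus small bowel, of -0.99 ± 0.43 for Cdhr2 (adjusted p = 0.0977), 0.82 ± 0.43 for Espn (adjusted p = 0.173), 0.29 ± 0.47 for Cdhr5 (adjusted p = 0.694), -0.09 ± 0.34 for Pls1 (adjusted p = 0.877) and 0.06 ± 0.39 for Cdh17 (adjusted p = 0.928, limma). Cdhr2 was near the threshold. It was called lower in 6 of 16 runs with other settings or probes, among them normexp correction (-1.66, adjusted p = 9.78e-05, limma). Of the 15 runs that left out 1 sample, 2 called it lower, among them that without jejunum 1 (-0.88, adjusted p = 0.0486, limma). Espn was called higher without jejunum 1 (0.93, adjusted p = 0.0324). In the same contrast 5 of 6 enterocyte markers were lower in colon (median -4.29), 3 of 6 general epithelial markers were higher (median 1.18) and 5 of 6 dissociation genes were higher (median 1.38).

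**Figure D2:**
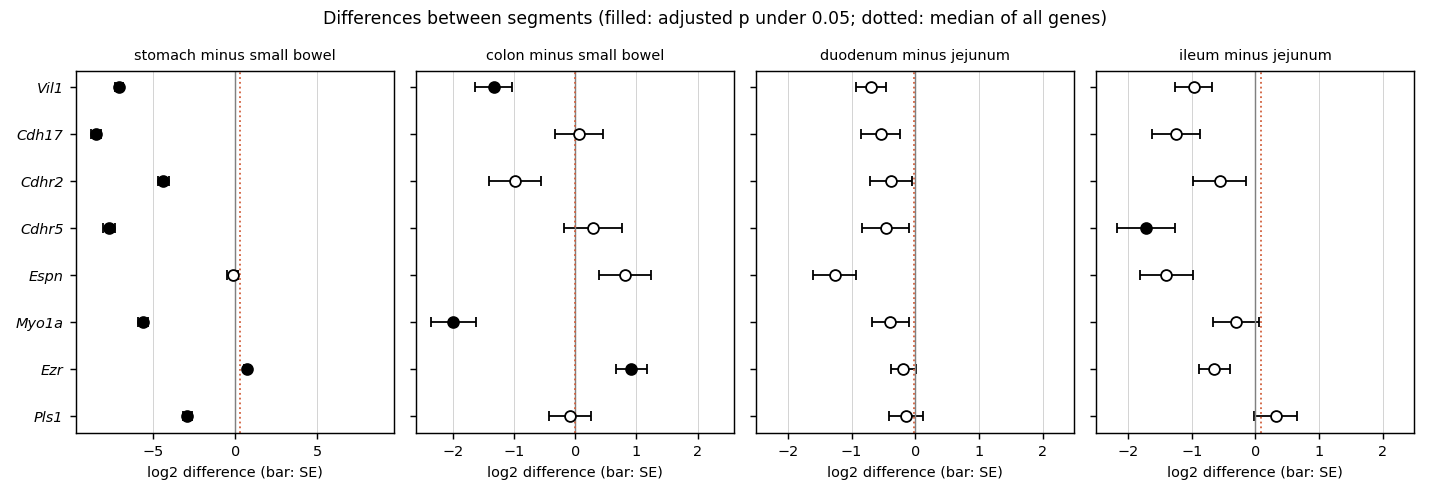
Fitted log2 differences with their SE for the 8 genes in the 4 contrasts (stomach minus small bowel, colon minus small bowel, duodenum minus jejunum, ileum minus jejunum); filled points have an adjusted p under 0.05, the dotted line is the median of all genes, and the stomach panel has a wider axis. Stomach differences reach -8.50, while those between neighbouring small bowel segments stay between -1.71 and 0.32.

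Within the small bowel, duodenum was set against jejunum and ileum against jejunum. Between duodenum and jejunum none of the 8 genes was called, where 0.245% of all genes were called higher and 0.296% lower. The unadjusted p was under 0.05 for Vil1 (-0.69 ± 0.24, adjusted p = 0.319) and Espn (-1.27 ± 0.34, adjusted p = 0.122, limma). Without jejunum 2 both were called lower (Vil1 -0.91, adjusted p = 0.0344, and Espn -1.60, adjusted p = 0.0151, limma), where 2.02% of all genes then were. Because the 2 segments shared arrays, the difference could also be read within each of the 3 arrays. Duodenum minus jejunum within arrays was negative on 3 of 3 arrays for Vil1 (-0.75 ± 0.42, SD, n = 3), Espn (-1.31 ± 0.96) and Myo1a (-0.37 ± 0.39), and on 2 of 3 for the other 5 genes. How many of all genes were negative on all 3 arrays was not counted, so these signs are a description only. The array of duodenum 2 and jejunum 1 gave the most negative value for every gene except Pls1, down to -2.41 for Espn. The sign of the other 2 arrays was mixed for Cdhr2, at 0.41 and -0.38, and for Cdhr5, at -0.41 and 0.34. It was also mixed for Cdh17, at -0.254 and 0.0351, and for Ezr, at 0.0146 and -0.245.

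**Figure D3:**
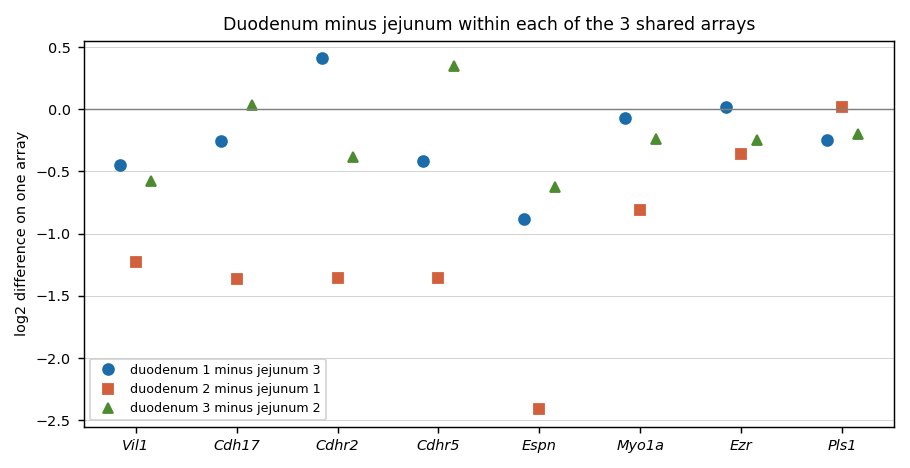
Duodenum minus jejunum (log2) within each of the 3 arrays that held one sample of each, for the 8 genes. The array with jejunum 1 gives the lowest point for 7 genes and the other 2 arrays lie nearer 0.

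Between ileum and jejunum, Cdhr5 was 3.28-fold lower in ileum (log2 difference -1.71 ± 0.46 SE, adjusted p = 0.0436), the only call among the 8, where 2.8% of all genes were called lower and 1.48% higher. The call was lost without jejunum 1 (-0.94, adjusted p = 0.207) and in most of the other alternatives. Of the genes not called, Espn differed by -1.40 ± 0.42 (adjusted p = 0.065), Cdh17 by -1.24 ± 0.38 (adjusted p = 0.0695), Vil1 by -0.97 ± 0.29 (adjusted p = 0.068), Ezr by -0.64 ± 0.24 (adjusted p = 0.141) and Cdhr2 by -0.56 ± 0.41 (adjusted p = 0.468, limma). Myo1a differed by -0.31 ± 0.36 and Pls1, the only gene of the 8 with a higher mean in ileum, by 0.32 ± 0.33. Without jejunum 2, the jejunum sample with the lowest Vil1, Cdh17, Cdhr5, Espn, Myo1a and Ezr, 4 genes were called lower in ileum (Vil1, Cdh17, Cdhr5 and Espn), where 5.67% of all genes then were. Without jejunum 1 none was, and the differences were -0.60 for Cdh17 and -0.74 for Espn. All 6 enterocyte markers were lower in ileum than in jejunum, with a median of -2.86. In jejunum 1 these markers summed to 1298, against 332 and 421 in the other jejunum samples, and the 4 goblet cell markers tested to 760, against 339 and 480. Whether the high level of most members in that sample follows from its cell makeup was not tested.

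Where a gene had several probes they did not always give 1 answer. The second Cdh17 probe, whose sequence is shown above, had relative signals of 0.162, 0.142 and 0.140 in stomach, 4.11, 4.82 and 2.66 in duodenum, 6.59, 3.46 and 3.70 in jejunum, 4.91, 3.63 and 3.51 in ileum and 1.03, 1.57 and 1.87 in colon. It was low in stomach like the first probe (log2 difference -4.77, adjusted p = 5.63e-10), but it was also lower in colon than in small bowel without overlap (-1.49 ± 0.33, adjusted p = 0.00338, limma), where the first probe gave 0.06. Over all probes, 13% were called lower in stomach and 13.2% lower in colon. The second Ezr probe had 0.880, 0.734 and 0.846 in stomach, 0.977, 0.872 and 0.471 in duodenum, 0.412, 0.545 and 0.989 in jejunum, 1.35, 1.05 and 0.619 in ileum and 0.436, 0.492 and 0.394 in colon. It gave -0.83 for colon minus small bowel (adjusted p = 0.122) and 0.12 for stomach minus small bowel (adjusted p = 0.804, limma), so neither higher call of Ezr was made with it, and the colon difference had the other sign. The Ezr differences therefore rest on a single probe.

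Cdhr2 had 3 probes, and the others lie 12917 and 14712 bases from the first. Both were lower in stomach than in small bowel, with log2 differences of -2.04 (adjusted p = 0.000451) and -1.30 (adjusted p = 0.0136), nearer 0 than the -4.37 of the first. For colon minus small bowel they gave -1.27 (adjusted p = 0.053) and -1.32 (adjusted p = 0.0456, limma). On the farthest probe stomach 1, at 0.567, overlapped the small bowel samples, and the spot was not above background in ileum 1. The 3 Cdhr2 probes thus gave the same sign against small bowel in both contrasts. Stomach minus colon was called on the first probe only: the others gave -0.76 (adjusted p = 0.268) and 0.018 (adjusted p = 0.983, limma).

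**Figure D4:**
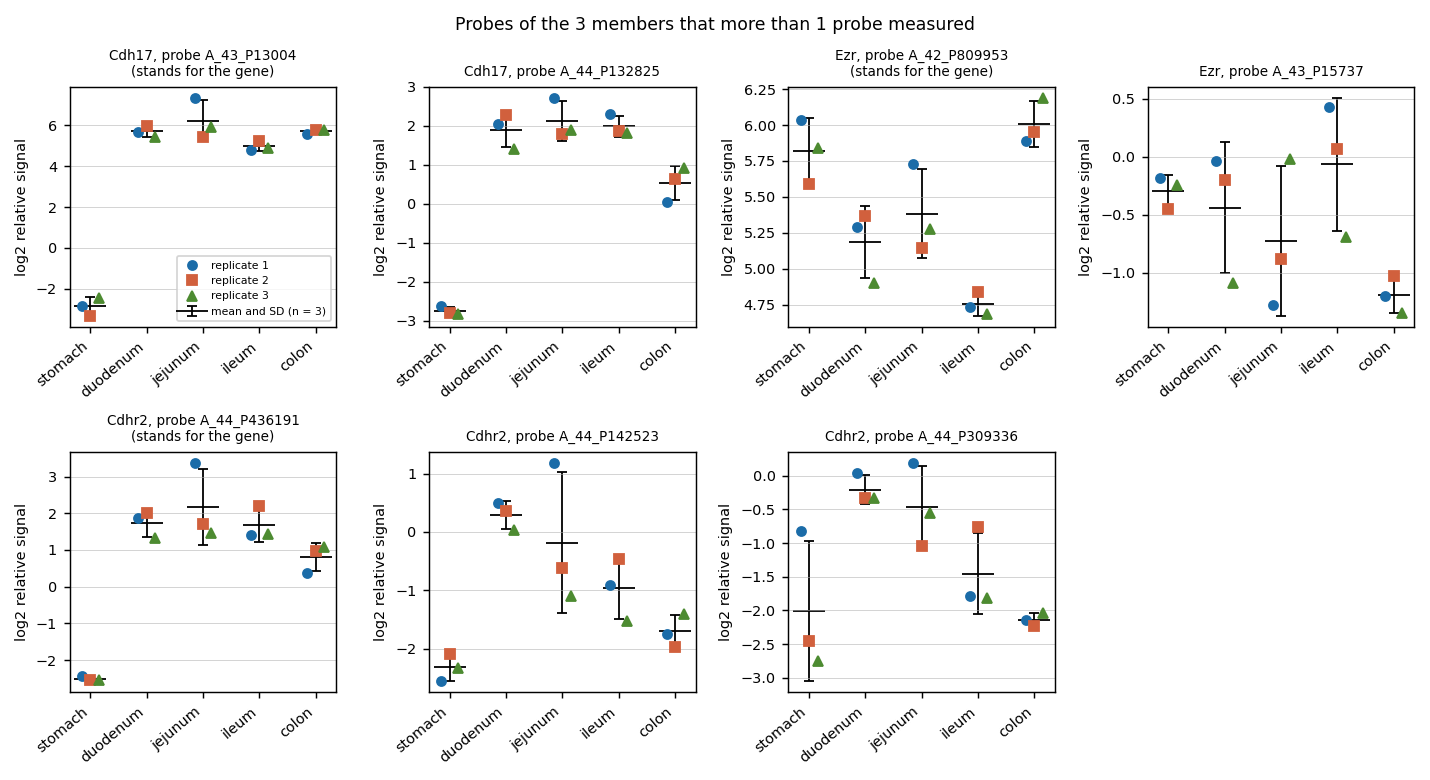
Log2 relative signal of each probe of Cdh17, Cdhr2 and Ezr in the 15 samples, by segment, with means and SD (n = 3) and an axis for each panel. In colon the second Cdh17 probe lies below its small bowel samples (relative signals of 1.03 to 1.87) and the first among them (48.4 to 54.7), while the second Ezr probe has its lowest mean in colon (0.394 to 0.492) and the first its highest (59.3 to 73.0).

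Across the 15 samples the log2 levels of Vil1, Cdh17, Cdhr2, Cdhr5, Myo1a and Pls1 correlated with each other at Pearson's r of 0.889 (Myo1a and Pls1) to 0.993 (Cdh17 and Cdhr5). Espn correlated with these 6 at 0.128 to 0.371 and Ezr at -0.555 to -0.251, while Espn and Ezr correlated at 0.550. These values describe samples that fall into 2 separate sets, stomach and the rest, and share segments and slides. By the same measure over the 15 samples, the named genes most like Vil1 were Zg16 (0.991), Bcl2l15 and Muc13. Those most like Cdh17 were Saa3 (0.994), Tff3 and Cdhr5. Slc39a4 (0.994), Cdh17 and Cln6 were the nearest to Cdhr5, Ugt2b10 (0.986), Chp2 and Gsdmd to Cdhr2, and Mapkapk5 (0.988), Il20ra and Prxl2b to Myo1a. For Pls1 the nearest were Cops4 (0.974), Heph and Pde9a, for Espn Slc9a3 (0.940), Mex3a and Ccdc102a, and for Ezr Rnf14 (0.950), Ctsb and Map1lc3a.

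A wider list of 50 genes of microvilli and the actin layer beneath them was read in the same fit, and 46 of them were tested. In stomach 23 were lower than in small bowel, 7 were higher and 16 were not called, against the 11.8% and 15.5% of all genes. Their median difference was -0.83, beside 0.28 for all genes. The lower genes included 6 of the 10 apical myosins and trafficking genes, 6 of the 11 terminal web and actin genes, 6 of the 12 membrane linkers and scaffolds and 4 of the 11 actin core and tip genes. The higher ones were 3 core and tip genes, 3 linkers and 1 terminal web gene.

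Krt20, a keratin of mature intestinal and foveolar epithelium, had 0.360, 0.395 and 0.379 in stomach against 36.2 to 227 over the small bowel samples, a 209-fold lower fitted level (adjusted p = 1.93e-12) that takes the 3 saturated spots among the 9 in small bowel at their recorded value. Nherf4, a scaffold that binds apical transporters, had 0.257, 0.175 and 0.236 in stomach against 2.36 to 14.2 in small bowel (19.7-fold lower, adjusted p = 1.37e-07). The non-muscle myosin Myh14 was 16.3-fold lower (adjusted p = 3.19e-08) and the Eps8 relative Eps8l3 12.6-fold lower (adjusted p = 1.64e-08, limma). All 4 were apart from the small bowel in every stomach sample, which was a condition for naming them. With normexp correction the log2 differences of Nherf4 and Myh14 were -3.29 and -3.40, against -4.30 and -4.03, and Myh14 was at -2.51 with the mean of its probes.

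Pls3, a plastin found in many tissues, ran opposite to Pls1. Its relative signals were 5.74, 5.002 and 5.55 in stomach against 0.0397 to 0.107 in small bowel, where 6 of 9 samples were above background (92.9-fold higher in stomach, adjusted p = 2.81e-11). The scaffold Nherf2 was 11.1-fold higher in stomach (adjusted p = 1.87e-06, 6 of 9 small bowel samples above background). Prom2, a protein of membrane protrusions, was also called higher (adjusted p = 8.71e-06), at 0.650 to 0.944 in stomach, but only 1 of 9 small bowel samples was above background, so no fold is given. The ezrin kinase Slk was 2.84-fold higher (adjusted p = 0.00198, limma). With normexp correction the log2 differences of Pls3 and Nherf2 were 4.92 and 2.24, against 6.54 and 3.47, and Pls3 was at 4.62 with the mean of its probes. The Slk call was lost with the scan day as the block (adjusted p = 0.0509). Fibroblast and endothelial markers were higher in the same stomach samples, and their part in the Pls3 difference was not tested.

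In colon 10 of the 46 were higher than in small bowel, 8 were lower and 28 were not called, against 12.6% higher and 13.2% lower among all genes. Their median was 0.20, beside 0.003 for all genes. Eps8, which caps the actin filaments at the tip, had 0.0396, 0.160 and 0.284 in colon against 2.09 to 7.60 in small bowel, 31.5-fold lower (adjusted p = 1.67e-05), with 2 of 3 colon samples above background. Pdzk1, a scaffold of brush border transporters, had 0.0328, 0.0917 and 0.170 in colon against 1.44 to 7.86 in small bowel, 30.99-fold lower (adjusted p = 1.99e-05), again with 2 of 3 above background. Both sizes depend on colon 1, the sample below background: without it the log2 differences were -3.79 for Eps8 and -3.90 for Pdzk1, against -4.98 and -4.95. With normexp correction they were -3.47 and -2.97, and Eps8 was at -2.53 with the mean of its probes. Baiap2l2, which binds the membrane and Eps8, was 3.91-fold lower (adjusted p = 5.35e-05) and the ezrin-binding scaffold Nherf1 2.69-fold lower (adjusted p = 0.00254, limma). Baiap2l2 was at -0.99 with normexp correction, against -1.97.

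Among the genes higher in colon, Prom1, a protein of apical protrusions, had 32.6, 25.8 and 31.5 there against 2.21 to 7.03 in small bowel, 6.80-fold higher (adjusted p = 4.3e-06). Prom1 was at 2.11 after quantile normalization, against 2.77 on the log2 scale. Pls3 was 14.6-fold higher in colon (adjusted p = 1.02e-06), at 0.778 to 0.854, with log2 differences of 2.04 with normexp correction and 2.61 with the mean of its probes, against 3.87. The ezrin relative Rdx was 5.18-fold higher (adjusted p = 0.000168), a call lost with the mean of its probes (log2 difference 0.63, adjusted p = 0.111), and the villin relative Vill was 3.37-fold higher (adjusted p = 0.000444, limma).

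Between duodenum and jejunum none of the 46 was called, where 0.245% of all genes were higher and 0.296% lower. Between ileum and jejunum 2 were higher and 4 lower in ileum, against 1.48% higher and 2.8% lower among all genes. Tmigd1, an adhesion molecule of epithelial cells, had 11.5, 14.2 and 22.7 in ileum against 0.477, 0.638 and 0.714 in jejunum, 27.3-fold higher (adjusted p = 1.87e-07). Prom1 was 2.16-fold higher in ileum (adjusted p = 0.0361, limma). The 4 lower genes were the actins Actb (3.06-fold, adjusted p = 0.0194) and Actg1 (2.15-fold, adjusted p = 0.0363), Krt20 (2.64-fold, adjusted p = 0.0228) and Rab8a, a GTPase of apical traffic (2.06-fold, adjusted p = 0.0323, limma). Without jejunum 1 neither these 4 nor Prom1 was called (adjusted p = 0.0846 for Actb), and Actb, Krt20 and Actg1 took the other sign under normexp correction (log2 differences of 0.10, 0.0896 and 0.41).

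**Figure D5:**
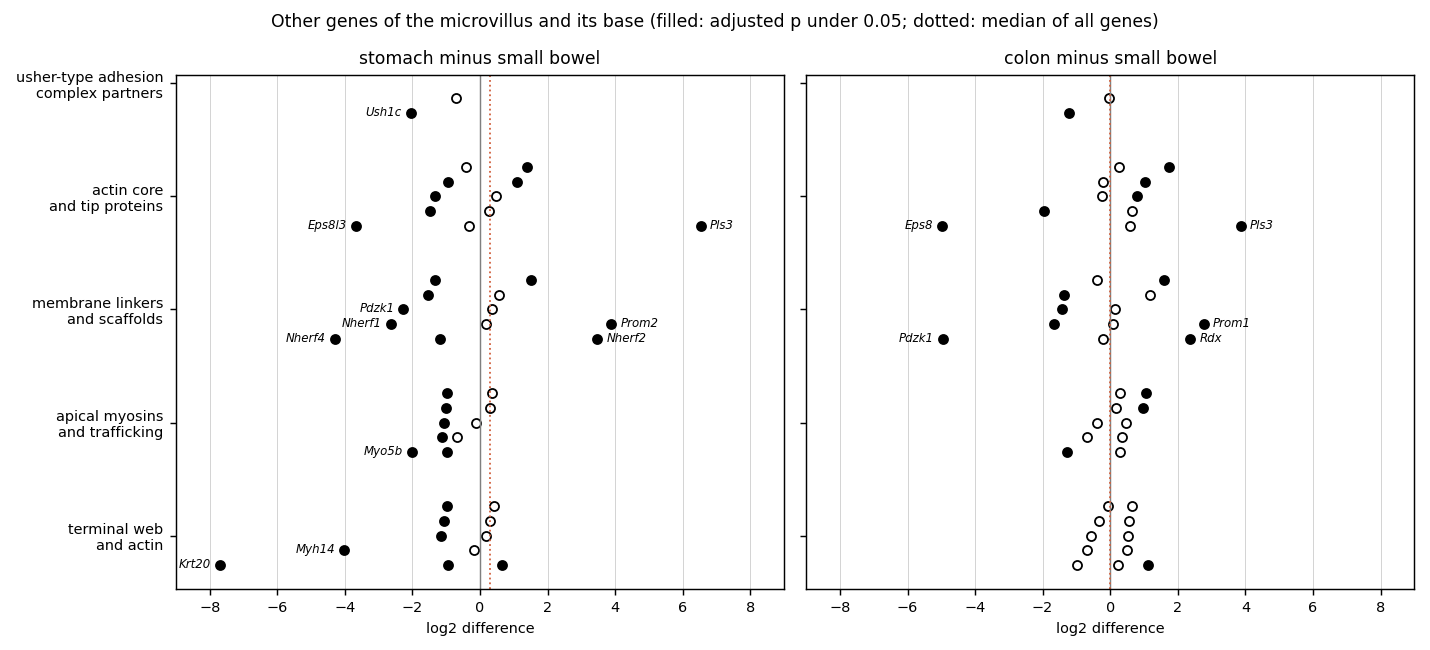
Fitted log2 differences of the 46 wider microvillus genes tested, by list, for stomach minus small bowel and colon minus small bowel; filled points are genes with adjusted p under 0.05 and genes more than 2 from 0 are named. In stomach 23 genes lie below and 7 above with a call, and in colon 8 and 10.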

How the data were processed

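Expression was read on 2-colour Agilent arrays from 15 mucosal cell samples, 3 per segment. Per the file headers, the deposited scanner files hold the intensity of each spot, background-subtracted and dye-normalized by Agilent's Feature Extraction software (versions 8.5.1.1 to 10.1.1.1). The deposited value table holds the same intensity of the labelled channel. The values show no division by the median over samples, which the series text describes.

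From these, each sample's labelled channel was taken as log2 and its 75th percentile subtracted. Control spots and those with a non-uniform or population outlier mark were dropped. Probes entered the test when well above background in all 3 samples of at least 1 segment (38846 of 41012), and the brightest tested probe by mean stood for a gene. limma 3.58.1 in R 4.3.3 was fitted over 15 samples with segment and dye, an intensity trend, and slides as a random effect whose correlation was 0.361, which left 9 degrees of freedom. No pseudocount was used. Probes were named through RefSeq by accession (11107), current symbol (6330) or older symbol (3987), and otherwise kept the files' name (19588).

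Tested on simulated data of 6000 genes for stomach minus small bowel, the fit recovered 76% of changes of 1.5 and 99% of 3 (log2), with 4.89% of calls false. Precision is limited by 3 samples per segment, and depth does not apply to arrays. Alternatives changed the background correction, scaling, filter, probe choice, dye term, block, moderation and values used, and left out each sample. Of these, 2 were added after seeing the data: each probe on its own, and colon 2 and 3 averaged. All 8 genes are named. From the wider lists, up to 4 genes per direction and contrast are named, those with the largest called difference whose samples do not overlap, and for likeness the 3 highest correlations with a non-provisional symbol. The members and lists were chosen with earlier results of these data known.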

Additional observations from a re-analysis of the deposited data

Results flagged for a closer look

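Among the 9 small bowel samples, jejunum 1 lay far from the next sample for 3 of the 8 genes, measured as the gap to the nearest sample over the whole range. The ratio was 0.538 for Cdh17, 0.576 for Cdhr2 and 0.494 for Espn, where the limit for 9 samples is 0.493. In each case jejunum 1 was the highest sample. Chance alone puts about 1 in 20 such groups past the limit, and the 3 genes share the sample. Jejunum 1 also had 52.4% of probes well above background and enterocyte markers summing to 1298, and the part of either in these levels was not tested.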

How the results depend on the processing

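The 6 lower calls in stomach and the lower calls of Vil1 and Myo1a in colon were made in every alternative, and 7 or 8 of the 8 genes passed the F test in each. The higher calls and those within the small bowel moved. With normexp background correction no gene was called higher in stomach or colon (0 and 0), the Cdh17 difference in colon was -0.40, and ileum minus jejunum was 0.37 for Ezr, 0.11 for Myo1a, 0.0172 for Vil1, 0.10 for Actb, 0.41 for Actg1 and 0.0896 for Krt20, with 4 wider genes higher and 0 lower in ileum. With quantile normalization 0 genes were higher in colon and 0 lower in ileum, with -0.58 for Cdh17 and -0.32 for Cdhr5 in colon, and 0.24 for Ezr and 0.0072 for Actg1 in ileum, and 0 wider genes lower there. With the mean of all probes 0 genes were higher in stomach, 0 higher in colon and 0 lower in ileum, with -0.71 for Cdh17 in colon, 0.21 for Cdhr2 and 0.0255 for Ezr in duodenum minus jejunum and 0.0323 for Ezr in ileum minus jejunum. With the scan day as block 0 genes were higher in stomach and 0 lower in ileum, Cdh17 in colon was -0.0352, and 1 wider gene was higher and 2 lower in ileum. Read on their own, the second Ezr probe gave -0.83 in colon, 0.24 in duodenum minus jejunum and 0.71 in ileum minus jejunum, the second Cdh17 probe -1.49 in colon, and the other Cdhr2 probes 0.62 and 0.38 in duodenum minus jejunum. In ileum 0 members were lower without the array block, without the intensity trend or with colon 2 and 3 averaged, while wider genes there numbered 1 higher and 1 lower without the trend, 1 higher with the colon samples averaged and 4 higher with the filter that ignores the stomach calls. Without the dye term 1 wider gene was lower in duodenum. The cause was not tested in any of these.

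Replicate numbers did not pair the samples: 30 same-numbered pairs had deviations correlating at -0.422 to 0.296, and 5 of 15 samples correlated best with their own number, against 0.492 to 0.553 for the 3 pairs on 1 slide. With the replicate block, 0 members and 1 wider gene were lower in ileum and Cdh17 in colon was -0.14, while 6603 genes were higher and 5938 lower in colon (6699 lower without the array block).

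Leaving out 1 sample at a time gave 0 to 1 members higher in stomach, 0 to 2 higher in colon, 0 to 2 lower in duodenum and 0 to 4 lower in ileum. Wider genes numbered 5 to 8 lower in colon (5 without colon 1), 0 to 2 lower in duodenum, 1 to 4 higher and 0 to 8 lower in ileum. Differences spanned -0.29 to 0.0342 for Espn in stomach, -0.10 to 0.17 for Cdh17 and -0.24 to 0.11 for Pls1 in colon. In duodenum minus jejunum they spanned -0.98 to 0.0937 for Cdhr2, -0.98 to 0.12 for Cdhr5 and -0.37 to 0.15 for Pls1, and in ileum minus jejunum -0.90 to 0.0706 for Cdhr2 and -0.51 to 0.0531 for Myo1a. Over all genes, stomach calls were 5145 higher and 3912 lower (2885 to 5811 and 2842 to 4478 leaving out 1 sample, down to 2480 and 2468 with other settings). Colon calls were 4158 higher and 4370 lower (2640 to 4618 and 3195 to 4828), with 48.8% of calls higher, against 66.2% with normexp. Duodenum minus jejunum gave 81 and 98 (16 to 520 and 10 to 668), and ileum minus jejunum 489 and 928 (146 to 1706 and 295 to 1875).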
